A study of Arabidopsis thaliana with 8 samples.

Results

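The vacuolar processing enzymes of Arabidopsis thaliana are encoded by 4 genes, BETA-VPE (AT1G62710), DELTA-VPE (AT3G20210), ALPHA-VPE (AT2G25940) and GAMMA-VPE (AT4G32940). They were followed in whole seedlings of 4 genotypes on Affymetrix ATH1 arrays, with 2 arrays per genotype and 8 in all. The genes were chosen by symbol from the array annotation, and all 4 of 4 were found among 13356 named genes. Each has 1 probe set, so the choice by highest mean signal decided nothing. All 4 were tested, among 17332 probe sets of the 22746 that are not controls. The genotypes were the clf-28 swn-7 double mutant, the single mutants clf-28 (SALK_021003) and swn-7 (SALK_050195), which carry T-DNA insertions, and wild type of the accession Columbia (Col-0, stock N1092). CURLY LEAF and SWINGER encode related histone methyltransferases of the Polycomb group, which keep many developmental genes silent. All plants had 3 days of stratification at 4 °C and then grew on nutrient plates at 23 °C and 70% humidity. A sample is bulked seedlings at the labelled growth stage 1.03. The double mutant was harvested after 12 days and the other 3 genotypes after 10 days, so that in each comparison with the double mutant the effects of genotype and of age cannot be told apart.

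Vacuolar processing enzymes are cysteine proteases of the legumain family, made as inactive precursors, which cut proteins after asparagine or aspartate inside the vacuole. The seed type is best known for cutting storage globulin and albumin precursors into their mature chains in the protein storage vacuoles of the embryo. The vegetative type works in the lytic vacuoles of leaves and roots, where it matures other vacuolar hydrolases and takes part in senescence and in cell death during defence. BETA-VPE is the main enzyme of the embryo and DELTA-VPE is known from the seed coat of young seeds, so both are called seed type here. ALPHA-VPE and GAMMA-VPE are called vegetative type.

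A floor was set at a signal of 10.0, to which lower values were raised, and 69.1% to 71.6% of the 22746 probe sets exceeded it on an array. The 2 arrays of a genotype correlated at 0.958 to 0.986 across probe sets, which are not independent replicates, and lowest in wild type. Whether the 2 arrays of a genotype stand for separate cultures is not stated, and p-values therefore measure only array-to-array spread, which may be technical. The transcripts of CLF and SWN themselves were not analysed here. Of 15 green-shoot markers 2 were tested, LHCB4.1 of the light-harvesting antenna and the Rubisco activase gene RCA, with a summed signal of 563 to 826 in the double mutant and 7614 to 10718 in the other 3 genotypes. Of 13 root markers 2 were tested, the expansin genes EXPA7 and EXPA18, with a summed signal of 9.00 to 14.3 in the double mutant and 35.2 to 111 in the others. In these bulk samples, fewer cells of a type and less RNA per cell cannot be told apart.

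All 4 genes changed in the double mutant against wild type, and they did not move together. Both seed-type genes and ALPHA-VPE rose, while GAMMA-VPE fell. BETA-VPE rose 49.0-fold, DELTA-VPE was at least 61.4-fold higher, ALPHA-VPE was at least 5.52-fold higher and GAMMA-VPE was 2.41-fold lower. In this comparison limma called 46.7% of all tested probe sets at an adjusted p below 0.05, with 25.2% higher and 21.5% lower, so a call alone sets none of the 4 apart. The arrays of the 2 genotypes did not overlap for any of the 4, as for 71.9% of all tested probe sets.

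**Figure D1:**
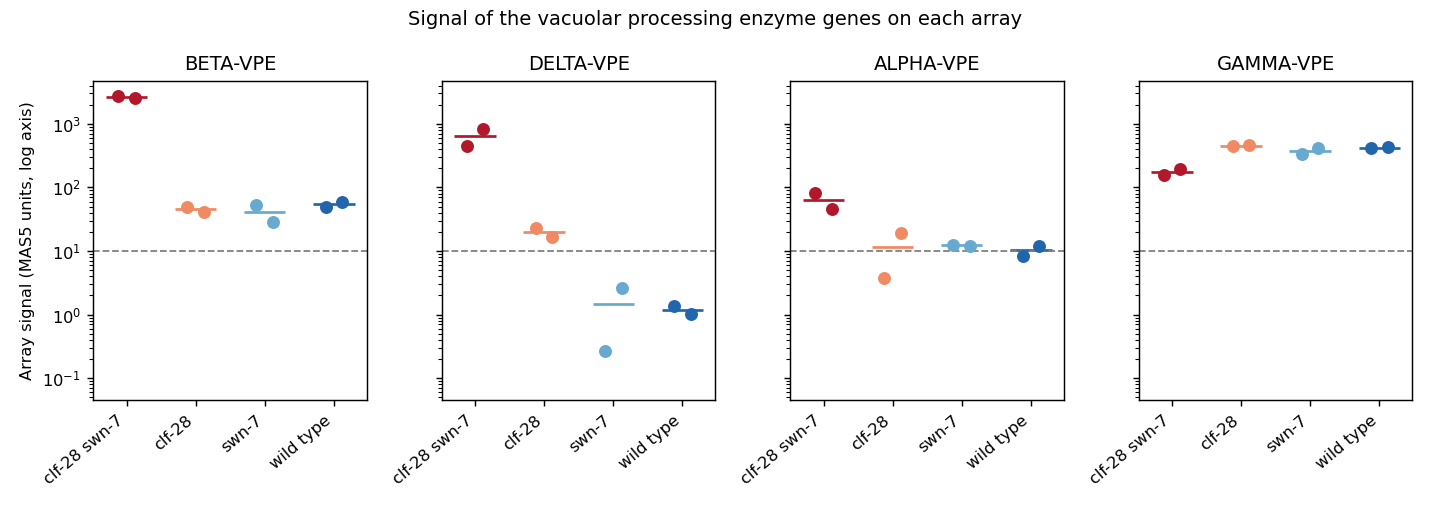
Signal of each of the 4 genes on each array (MAS5 units, log axis), with 1 point per array, a horizontal bar at the mean of the 2 arrays of a genotype and a dashed line at the floor of 10.0. The 2 double-mutant arrays lie above the other 6 for BETA-VPE, DELTA-VPE and ALPHA-VPE and below the other 6 for GAMMA-VPE.

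The embryo enzyme BETA-VPE had signals of 2783 and 2519 on the double-mutant arrays, 50.0 and 40.4 in clf-28, 52.9 and 28.6 in swn-7, and 48.6 and 60.0 in wild type. Every array lay above the floor, so the transcript was already measurable in wild-type seedlings, and only the double mutant stood apart from the range of the other 6 arrays. The log2 change of the double mutant over wild type was 5.62 ± 0.29 (limma's standard error, here and below, with 2 arrays per genotype; adjusted p = 9.62e-06). Of the 17332 probe sets, 98 rose by more. Each of the single mutants overlapped wild type, with log2 changes of -0.27 in clf-28 (95% interval -0.94 to 0.41, adjusted p = 0.760) and -0.47 in swn-7 (95% interval -1.15 to 0.20, adjusted p = 0.546). The 4 genotypes ordered from high to low by mean signal as double mutant, wild type, clf-28 and swn-7, and the last 3 did not differ beyond their spread.

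The seed-coat enzyme DELTA-VPE gave 449.9 and 839 in the double mutant, 23.2 and 16.6 in clf-28, 0.265 and 2.63 in swn-7, and 1.36 and 1.02 in wild type. Both wild-type and both swn-7 arrays were below the floor, while both clf-28 arrays were above it. The double mutant was thus at least 61.4-fold above wild type (log2 5.94 ± 0.32, adjusted p = 1.13e-05), a lower bound set by the floor, and 84 probe sets had a larger fitted rise. Raising arrays to the floor left no spread in wild type or swn-7, so the standard errors and p-values of this gene depend on the floor too. In clf-28 the gene was at least 1.97-fold above wild type (log2 0.97 ± 0.32) with no overlap of arrays, which was also seen for 43.7% of all probe sets, and it did not pass the test (adjusted p = 0.318). No fold is given between swn-7 and wild type, since both were at the floor. DELTA-VPE was the only 1 of the 4 genes with an unadjusted limma p below 0.05 in a single mutant. The only seed-coat marker named in the annotation, BAN, which encodes an anthocyanidin reductase, stayed between 0.446 and 1.04 on all 8 arrays, so no defining marker of that tissue was detected beside it.

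ALPHA-VPE, of the vegetative type, had signals of 81.3 and 45.7 in the double mutant, 3.76 and 19.4 in clf-28, 12.7 and 12.1 in swn-7, and 8.33 and 12.2 in wild type. Outside the double mutant the gene lay at or near the floor, and the clf-28 arrays fell on both sides of it. It was at least 5.52-fold higher in the double mutant than in wild type (log2 2.46 ± 0.37, adjusted p = 0.00145), where 1 of the 2 wild-type arrays exceeded the floor. The intervals of the single-mutant changes were wide, with log2 0.33 in clf-28 (95% interval -0.53 to 1.201, adjusted p = 0.765) and 0.17 in swn-7 (95% interval -0.70 to 1.03, adjusted p = 0.907). The order of clf-28, swn-7 and wild type cannot be read from values this close to the floor.

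GAMMA-VPE, the vegetative enzyme known from senescing leaves and from virus-induced cell death, had signals of 156 and 197 in the double mutant, 442 and 464 in clf-28, 341 and 419 in swn-7, and 409.7 and 437 in wild type. It was well above the floor on all 8 arrays, and the double-mutant arrays were lowest. The log2 change of the double mutant over wild type was -1.27 ± 0.16 (adjusted p = 7.23e-04), or 2.41-fold lower. This fall was moderate among all probe sets, since 2122 fell by more and the median change of all 17332 was a log2 of 0.11. In clf-28 the log2 change was 0.10 (95% interval -0.29 to 0.48, adjusted p = 0.860) and in swn-7 it was -0.16 (95% interval -0.55 to 0.22, adjusted p = 0.729). The order by mean signal was clf-28, wild type, swn-7 and double mutant, and the first 3 were not told apart by the test. The clf-28 arrays did not overlap those of wild type, as for 43.7% of all probe sets.

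**Figure D2:**
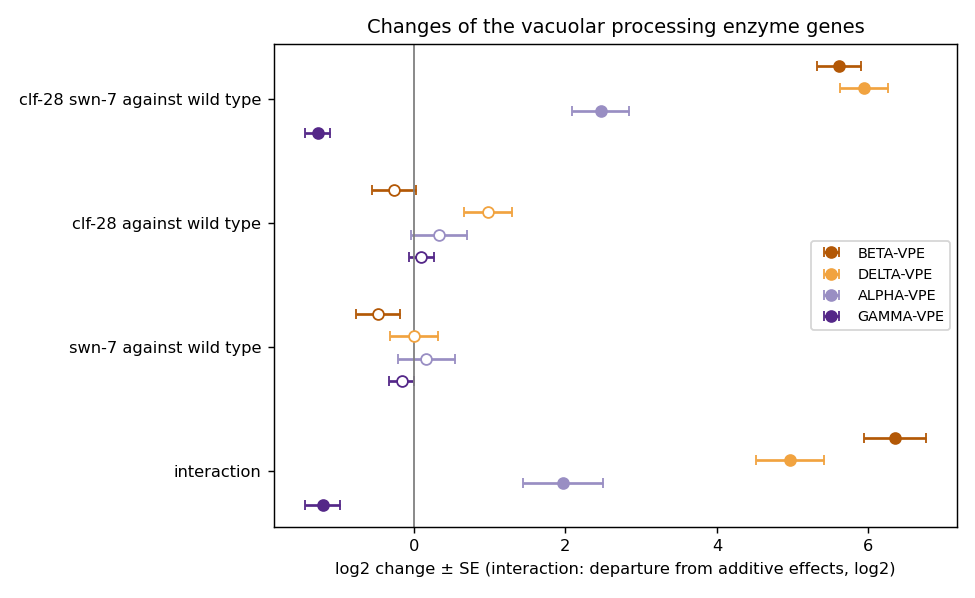
Log2 change of each gene in the double mutant, clf-28 and swn-7 against wild type, and the interaction, with bars of 1 limma standard error; filled points passed an adjusted p of 0.05 and open points did not. All 4 genes passed in the double mutant and in the interaction, and 0 of 4 passed in either single mutant.

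In the single mutants 0 of 4 genes were called by limma. That matches a background of 0.121% of probe sets called in clf-28 and 0% in swn-7, where 2162 and 2117 of 17332 had an unadjusted p below 0.05. The double mutant was also compared with each single mutant, which asks what the loss of the second gene adds, together with the difference in age. Against swn-7, all 4 genes were called (background 45.4%): BETA-VPE rose 68.1-fold (log2 6.09 ± 0.29), DELTA-VPE was at least 61.4-fold higher, ALPHA-VPE rose 4.92-fold (log2 2.30 ± 0.37) and GAMMA-VPE was 2.16-fold lower (log2 -1.11 ± 0.16). Against clf-28, all 4 were called as well (background 45.0%). BETA-VPE rose 58.9-fold (log2 5.88 ± 0.29), DELTA-VPE rose 31.3-fold (log2 4.97 ± 0.32), ALPHA-VPE was at least 4.38-fold higher (log2 2.13 ± 0.37) and GAMMA-VPE was 2.58-fold lower (log2 -1.37 ± 0.16). The limma adjusted p values of these 8 values lay between 6.54e-06 and 0.00305. The 3 comparisons share the double-mutant arrays and are not independent of each other.

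The interaction tests for a departure from additive effects of both mutations on the log2 scale. It includes the older double-mutant arrays, so here too effects of genotype and of age cannot be told apart. Of all probe sets 31.0% were called for it, 15.4% above additivity and 15.7% below. All 4 genes were called. For BETA-VPE additive effects would give a signal of 32.3, against the 2783 and 2519 measured in the double mutant, an interaction of log2 6.35 ± 0.41 (adjusted p = 7.11e-05). DELTA-VPE had an interaction of 4.97 ± 0.45 (adjusted p = 2.96e-04), a value that depends on the floor. With no floor it was 5.46, with a limma adjusted p of 0.0142. ALPHA-VPE had 1.96 ± 0.53 (adjusted p = 0.0268), a call lost when any 1 of 6 arrays was left out, namely either wild-type or either swn-7 array, clf-28 replicate 1 or double-mutant replicate 1 (adjusted p 0.0558 to 0.125 without these). For GAMMA-VPE additive effects would give a signal of 404, against 156 and 197 measured, an interaction of -1.21 ± 0.23 (adjusted p = 0.00767).

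**Figure D3:**
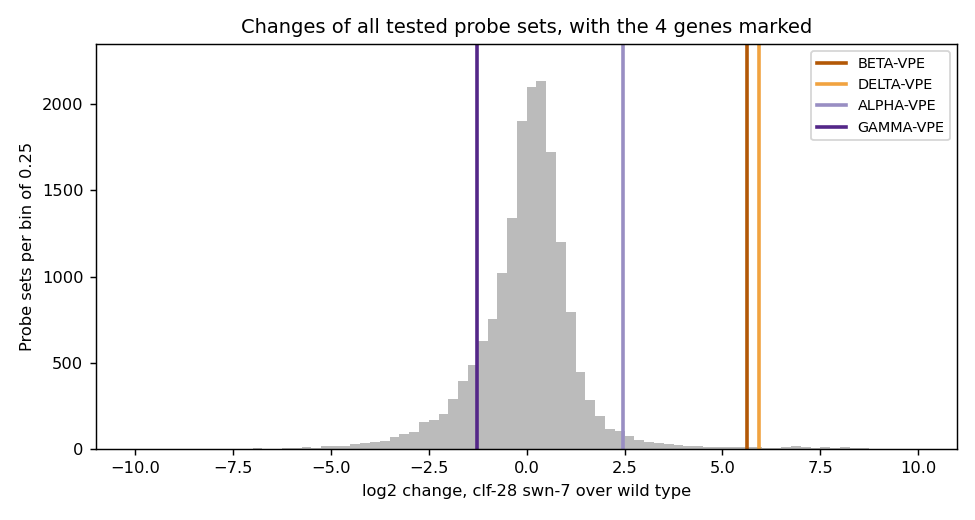
Distribution of the log2 change of the double mutant over wild type for all 17332 tested probe sets in bins of 0.25, with a vertical line at each of the 4 genes. BETA-VPE at 5.62 and DELTA-VPE at 5.94 lie in the thin upper tail, ALPHA-VPE at 2.46 lies nearer the bulk and GAMMA-VPE at -1.27 lies on the lower shoulder of the bulk.

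Set against each other as changes, not as levels, the seed-type genes rose more than the vegetative-type genes in the double mutant over wild type. The log2 change of BETA-VPE exceeded that of GAMMA-VPE by 6.89 ± 0.48 and that of ALPHA-VPE by 3.15 ± 0.59. That of DELTA-VPE exceeded that of GAMMA-VPE by 7.21 ± 0.30 and that of ALPHA-VPE by 3.48 ± 0.80. Each difference that involves DELTA-VPE or ALPHA-VPE depends on the floor, as does its standard error. These standard errors come from the spread of the within-array difference over all 8 arrays, with 4 residual degrees of freedom. The double-mutant arrays lay above the wild-type arrays in all 4 differences, and the two-sided exact permutation p was 0.3333 for each, the smallest that 2 arrays against 2 can give. Direction did not follow the seed and vegetative types, since ALPHA-VPE moved as BETA-VPE and DELTA-VPE did, and opposite to GAMMA-VPE.

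Transcripts of seed storage proteins were followed through a list of 13 genes, of which 5 were named and tested. Whether the products of these 5 genes are cut by either seed-type enzyme was not tested. The list was chosen with earlier results of these data known. All 5 rose in the double mutant against wild type, with a median log2 change of 6.15, against a median of 0.11 and 25.2% called higher over all probe sets. AT2G28490, AT1G03890 and AT2G18540 passed the filter only with the double-mutant arrays, so the filter favoured a rise of these genes. AT2G18540, named after its values were seen, had 33.4 and 21.5 in the double mutant and was below the floor on every other array. It was at least 2.68-fold higher than in wild type. PAP85, for a storage protein of the vicilin kind, had signals of 4552 and 3518 in the double mutant and 19.0 and 57.9 in wild type. The list members AT2G28490, at 4957 and 4728 in the double mutant and 7.65 and 25.8 in wild type, and AT1G03890, at 686 and 709 in the double mutant and 2.63 and 26.7 in wild type, were entered by locus and carry no other name in the annotation. The summed signal of the 5 was 10132 to 11670 in the double mutant, 58.6 to 106 in clf-28, 18.8 to 23.2 in swn-7 and 39.0 to 145 in wild type. The other 8 entries of the list, for 12S globulins and 2S albumins, were not analysed here.

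Of 15 embryo markers 2 were tested, and both rose in the double mutant against wild type, as did 25.2% of all probe sets. They were OLEO3, an oleosin that coats oil bodies, and BBM, a transcription factor that promotes embryo formation. BBM exceeded the floor only in the double mutant, so it was tested only through those arrays and its rise was fixed by the filter. The summed signal of OLEO3 and BBM was 2134 to 2213 in the double mutant, 8.46 to 9.87 in clf-28, 9.65 to 9.68 in swn-7 and 14.5 to 26.1 in wild type. In the double mutant this sum was mostly OLEO3, which rose by a log2 of 6.82 over wild type, while BBM rose by at least 2.59 from the floor. OLEO3 was also the 1 tested member of 12 oil-body genes. Of 19 seed maturation regulators 3 were tested, and 2 rose: BBM and EEL, which encodes a bZIP factor of late embryogenesis. EEL had signals of 405 and 351 in the double mutant and 13.7 and 16.3 in wild type (log2 4.66 ± 0.28, adjusted p = 1.97e-05). The bZIP factor gene BZIP53 did not pass (log2 -0.30 ± 0.20, adjusted p = 0.248). The part of these markers in the rise of BETA-VPE and DELTA-VPE was not tested.

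Most tested members of a list of other vacuolar and papain-like proteases rose. Of 29 list entries 9 were tested, and in the double mutant against wild type 7 were higher, 1 was lower and 1 was not called, with a median log2 change of 1.204 and a background of 25.2% higher and 21.5% lower. The number higher was 5 to 6 in the 8 omissions of 1 array. AT1G62290 was highest in fold, with 3598 and 3385 in the double mutant, 129.6 and 99.98 in clf-28, 74.9 and 92.2 in swn-7, and 117 and 98.1 in wild type. That is a 32.5-fold rise (log2 5.02 ± 0.18, adjusted p = 2.59e-06), and both double-mutant arrays were far above the other 6. AT4G01610 rose 6.19-fold (log2 2.63 ± 0.15) and AT1G02305 rose 2.30-fold (log2 1.204 ± 0.14). These 3 loci were entered by locus and have no other name in the annotation.

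Among the other proteases, described after their values were seen, CP1, a cysteine proteinase, rose 5.42-fold and APA1, an aspartic proteinase, rose 2.41-fold (log2 1.27 ± 0.24, adjusted p = 0.00407). SCPL49, annotated as a carboxypeptidase Y, a kind of vacuolar hydrolase that GAMMA-VPE is known to mature, had signals of 927 and 912 in the double mutant and 559 and 354 in wild type (log2 1.05 ± 0.25, adjusted p = 0.0114). It was thus higher where GAMMA-VPE was lower. Its relative scpl48 was lower, with 169.7 and 116 in the double mutant and 304 and 205 in wild type (log2 -0.83 ± 0.24, adjusted p = 0.0241). That call was lost without wild type replicate 1, without either clf-28 array and without double-mutant replicate 2 (adjusted p up to 0.159). Over the whole family of serine carboxypeptidase-like genes, gathered by symbol after the annotation was seen, 20 of 29 were tested, 4 rose and 5 fell, shares near the background of 25.2% higher and 21.5% lower, with a median log2 change of 0. The largest rise there was that of scpl35 (log2 2.90 ± 0.28) and the largest fall that of SCPL34 (log2 -3.11 ± 0.31).

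**Figure D4:**
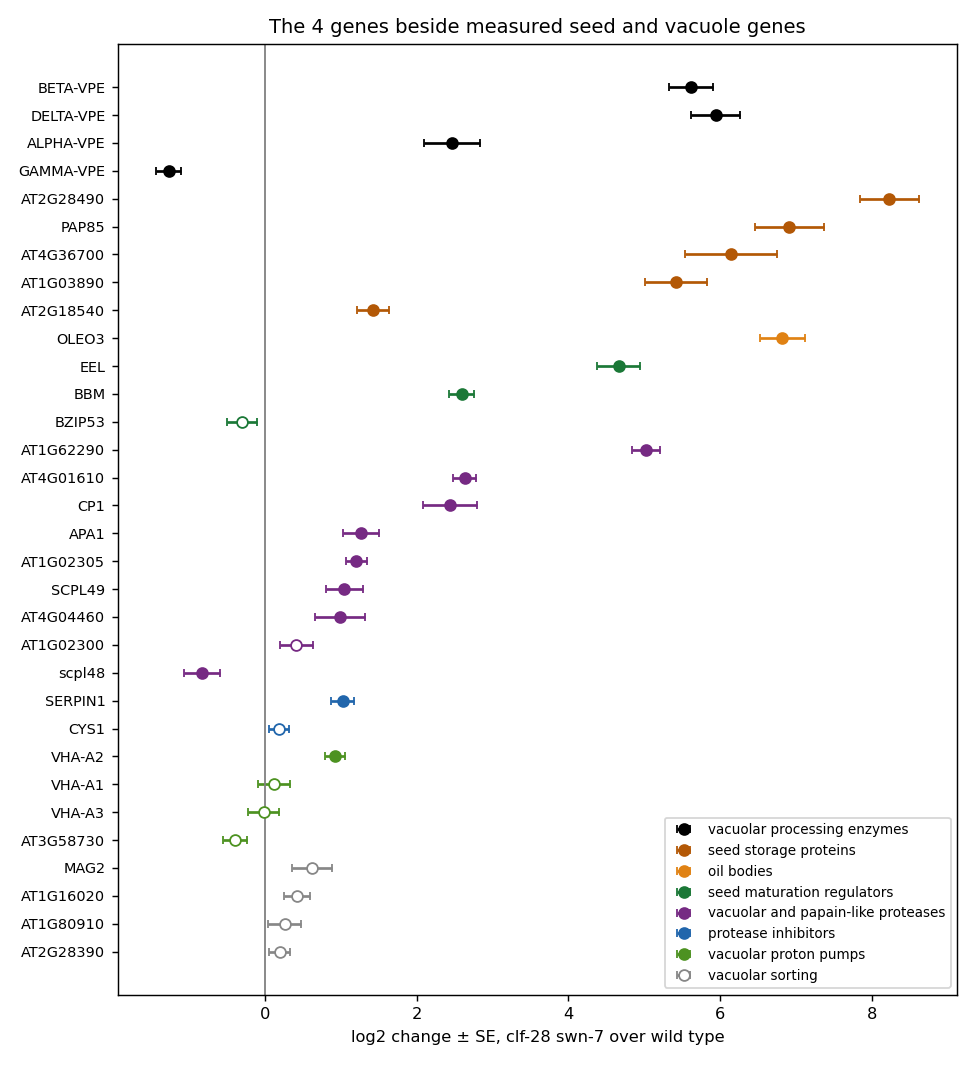
Log2 change of the double mutant over wild type, with bars of 1 limma standard error, for the 4 genes and for the tested members of 7 lists of seed and vacuole genes, coloured by list; filled points passed an adjusted p of 0.05. BETA-VPE at 5.62 and DELTA-VPE at 5.94 lie among the seed storage genes, whose median was 6.15, and above each tested protease.

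Genes for the rest of the vacuole gave both calls and values that missed the threshold. The counts against wild type below stand beside 25.2% of all tested probe sets called higher and 21.5% called lower. Of 15 protease inhibitor entries 2 were tested: SERPIN1, a serpin that inhibits papain-like proteases, rose 2.03-fold (log2 1.02 ± 0.16, adjusted p = 0.00151), and the cystatin gene CYS1 did not pass (log2 0.19 ± 0.13, adjusted p = 0.283). Of 19 proton pump entries 4 were tested, and 1 rose. VHA-A2, a subunit of the tonoplast proton pump, had a log2 change of 0.92 ± 0.13 (adjusted p = 0.00118), while VHA-A1 (log2 0.12 ± 0.21) and AT3G58730 (log2 -0.40 ± 0.16) did not pass. Of 33 vacuolar sorting entries 4 were tested and 0 were called by limma in either direction, 2 of them having an unadjusted p below 0.05, with a median log2 change of 0.34. In the other comparisons of the double mutant, the same 4 genes were called higher against swn-7 in 4 of 4 (median log2 change 0.82). Against clf-28 1 of 4 was called higher, and in the interaction 2 of 4. Over all 17332 probe sets, 4302 were called higher against swn-7, 4042 against clf-28 and 15.4% in the interaction. The 4 sorting genes include, with values against wild type, MAG2, needed for export of storage protein precursors from the endoplasmic reticulum (log2 0.62 ± 0.26, adjusted p = 0.0905), AT1G16020 (log2 0.42, adjusted p = 0.0843) and AT2G28390 (log2 0.19, adjusted p = 0.301). The tonoplast sugar transporter gene TMT2 rose 3.45-fold (log2 1.79 ± 0.25) and TMT1 did not pass (log2 -0.43 ± 0.19), 2 of 3 transporters of that family being tested. For tonoplast intrinsic proteins and metacaspases 0 list members were named.

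The settings in which GAMMA-VPE is known to act were covered thinly. Of 16 senescence and cell death entries 4 were tested, with 1 higher (AT4G04460, log2 0.99 ± 0.33, adjusted p = 0.0423), 1 lower (scpl48) and 2 not called. These shares are near the background of 25.2% higher and 21.5% lower. The AT4G04460 call held in 1 of 8 omissions of an array, that of double-mutant replicate 1 (adjusted p up to 0.182 in the others), and in 5 of all 20 alternatives. SAG29 was among those that missed the threshold (log2 1.22 ± 0.44, adjusted p = 0.0553), which it passed in 7 of 20 alternatives, among them the omission of either clf-28 array. Their summed signal was 274 to 356 in the double mutant, 281 to 314 in clf-28, 238 to 250.3 in swn-7 and 297 to 390.4 in wild type, so it did not separate the double mutant from wild type. Of 12 pathogen response entries 1 was tested, the defensin gene PDF1.2, which did not pass (log2 0.02 ± 0.28, adjusted p = 0.968). LHCB4.1 (log2 -3.995 ± 0.25) and RCA (log2 -3.69 ± 0.29) fell in the same arrays in which GAMMA-VPE was low. EXPA7 (log2 -1.199 ± 0.39, adjusted p = 0.0395) and EXPA18 (log2 -1.201 ± 0.32, adjusted p = 0.0171) were also lower, at or near the floor in the double mutant. Both calls were lost without any 1 of the wild-type or double-mutant arrays, and that of EXPA7 also without either clf-28 array (adjusted p up to 0.129 for EXPA18 and 0.194 for EXPA7). The part of these shoot and root markers in the fall of GAMMA-VPE was not tested.

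Across the 8 arrays, the genes most like each enzyme were found among 9427 tested genes with 1 symbol. AT5G01670 was most like BETA-VPE (Pearson r = 0.997), AT5G24600 most like DELTA-VPE (r = 0.997), AT4G23590 most like ALPHA-VPE (r = 0.992) and AT1G53560 most like GAMMA-VPE (r = 0.987). The next were AT1G32740 and AT3G48185 for BETA-VPE, AT5G58490 and AT1G74010 for DELTA-VPE, AT3G19660 and AT1G03910 for ALPHA-VPE, and AT3G19340 and AT2G26690 for GAMMA-VPE, all with r between 0.984 and 0.997. Such values mainly restate that the double-mutant arrays stand apart, since 727 genes had an r above 0.95 with BETA-VPE, 574 with DELTA-VPE, 320 with ALPHA-VPE and 210 with GAMMA-VPE. Over the 6 arrays without the double mutant the r of these 12 genes lay between 0.689 and 0.988.

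The nearest protein-coding genes were taken from the TAIR10.1 annotation, 2 on each side of each enzyme gene, to see whether the changes extended beyond it. In the double mutant against wild type, 25.2% of all tested probe sets were called higher and 21.5% lower. AT1G62730, the 1 tested neighbour of BETA-VPE, rose 2.71-fold in the double mutant (log2 1.44 ± 0.19, adjusted p = 7.91e-04), with 85.1 and 76.3 in the double mutant and 28.3 and 31.2 in wild type. AT3G20230, the 1 tested neighbour of DELTA-VPE, did not pass (log2 -0.42 ± 0.20, adjusted p = 0.121). Opposite to DELTA-VPE, AT3G20230 was lower in the double mutant than in swn-7 (log2 -1.01 ± 0.20, adjusted p = 0.00486) and than in clf-28 (log2 -0.81 ± 0.20, adjusted p = 0.0135), and its interaction was -1.40 ± 0.28 (adjusted p = 0.00875). Of 2 tested neighbours of ALPHA-VPE, AT2G25950 rose 2.95-fold (log2 1.56 ± 0.14) and AT2G25920 did not pass (log2 0.25 ± 0.24). Of 4 tested neighbours of GAMMA-VPE, which itself fell, AT4G32960 rose 2.04-fold (log2 1.03 ± 0.25, adjusted p = 0.0115) and the other 3 were not called. The call of AT4G32960 was lost without double-mutant replicate 2 and with only the compared arrays. No tested neighbour reached the size of the change of BETA-VPE or DELTA-VPE, and for each of these only 1 of 4 neighbours was tested.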

How the data were processed

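The authors deposited intensities on a linear scale, 1 signal per ATH1 probe set and array. The submitters' processing notes name MAS5 and GCOS without versions. Each array had a 2% trimmed mean of 100.0, and the signals were used as deposited. Detection calls were not used. The 27 probe sets for Bacillus transcripts reached at most 8.74. Signals below a floor of 10.0 (10% of the trimmed mean) were raised to it before taking log2. Without the 64 controls, a probe set was tested if above the floor on at least 2 arrays. The 8 arrays were fitted together, 1 mean for each genotype, using limma 3.58.1 (R 4.3.3; lmFit, eBayes with an intensity trend, 4 residual and 3.43 prior degrees of freedom). Two-sided p-values were adjusted by Benjamini-Hochberg across the 17332 probe sets and called at 0.05. A fold against a genotype with an array at the floor is a lower bound. On simulated arrays with 17332 probe sets for the double mutant against wild type, 16 of 50 changes of log2 1, 42 of 50 of log2 2 and 49 of 50 of log2 3 were recovered. Few probe sets were changed there, and 163 were called, against 8089 in the data. The Benjamini-Hochberg threshold was therefore stricter in the simulation, and these shares do not give the recovery in the data.

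Of 22810 probe sets, 13513 had 1 symbol, 503 several, and 8794 were not listed; 13436 symbols matched RefSeq (TAIR10.1). The build behind the probes is not stated, hence no coordinates, and no sequence table was used here. Named genes are the 4 enzymes, the 3 members of each list with the smallest adjusted p in the double mutant against wild type, the 3 genes most like each enzyme, and those said to be chosen after their values were seen. The members and lists were chosen with earlier results of these data known. Same-numbered arrays of different genotypes deviated together weakly at most (correlations of -0.08 to 0.22, highest for clf-28 and swn-7), so the numbers were not taken as pairs. The number of arrays limits the precision.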

Additional observations from a re-analysis of the deposited data

Results flagged for a closer look

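By the interaction test, the change from swn-7 to the double mutant differed from the change from wild type to clf-28 for each of the 4 genes. Only the double mutant was harvested after 12 days, so effects of genotype and of age cannot be told apart in this test. The interaction was 6.35 for BETA-VPE, 4.97 for DELTA-VPE, 1.96 for ALPHA-VPE and -1.21 for GAMMA-VPE on the log2 scale. With 2 arrays per genotype no single array could be tested as standing apart from its group. ALPHA-VPE is the least secure of the 4, since its limma adjusted p was 0.0268 and passed in 2 of 8 omissions of 1 array.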

How the results depend on the processing

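The alternatives were other floors, no floor, a constant of 16 added, quantile normalization, equal medians, other filters, eBayes variants, the replicate block, only the compared arrays and the omission of each array. A lone array is then assumed to vary like the other genotypes. Of 476 alternative values of the 4 genes over 6 contrasts, 464 kept direction and side of the threshold, and 9 lost a call. The double mutant over wild type kept its call for all 4 in 20 of 20 alternatives: BETA-VPE 5.25 to 5.77, DELTA-VPE 4.94 to 9.03, ALPHA-VPE 1.56 to 2.88 and GAMMA-VPE -1.44 to -1.11. The DELTA-VPE value follows the floor by construction. The 9 lost calls were all ALPHA-VPE interactions: 2.33 with a floor of 5%, 2.54 with no floor, 1.96 with no filter, and 6 of the 8 omissions of 1 array (limma adjusted p 0.0558 to 0.125). Over all 8 omissions this interaction was 1.49 to 2.44, and the call held where the second array of clf-28 was omitted (2.44) or that of the double mutant (2.38), with limma adjusted p of 0.0213 and 0.0444. The ALPHA-VPE change in clf-28 turned sign with a floor of 5% (-0.035), with no floor (-0.24) and without clf-28 replicate 2 (-0.14; 0.81 at the other end of the omissions). With the replicate block, a fit in which same-numbered arrays share a term, the double mutant over wild type gave limma adjusted p of 3.29e-05 for BETA-VPE, 5.50e-05 for DELTA-VPE, 0.00311 for ALPHA-VPE and 6.70e-04 for GAMMA-VPE, and no call of the 4 changed; the block gave 7970 calls.

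The counts of called probe sets moved as follows. In clf-28 the count was 41 with a constant added, 0 with only the compared arrays and 2 to 584 over omissions. In swn-7 it was 2 with no floor, 8 with no filter and 0 to 806 over omissions. Against clf-28 the double mutant gave 4997 to 8302 and the interaction 3274 to 5678 over omissions. PDF1.2 turned sign with quantile normalization (-0.00890), equal medians (-0.063) and without wild type replicate 1 (omissions -0.13 to 0.17), as did VHA-A1 without double-mutant replicate 2 (omissions -0.14 to 0.38). Other named genes lost a call in 35 and gained one in 9 of 519 values. No gene had another probe set to try. The causes were not tested.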
